A study of Mus musculus with 23 samples.

Results

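The genes described here are the 5 NF-kB subunits (Nfkb1, Nfkb2, Rel, Rela and Relb) and 5 inhibitors that act on the pathway from inside the cell (Nfkbia, Nfkbie, Nfkbid, Nfkbiz and Tnfaip3). These 10 genes were chosen by symbol among the 47729 Ensembl gene identifiers of the count table, and all 10 passed the filter on low counts that left 19597 genes for testing. They were measured by RNA sequencing in dendritic cells (DCs) sorted from the spleen of wild type Balb/C mice. The labels name 4 sorted populations: DC1a (CD8hi CD172-), DC1b (CD8Int CD172+), DC2 (CD8lo CD172hi) and DC3 (CD8- CD172lo). Cells came from 2 pools of Untreated mice and from 4 pools treated with TLI. This abbreviation, most often used for total lymphoid irradiation, is not spelled out there, and neither dose, time before sorting nor the age of these mice is given. Each Untreated group held 2 libraries, and the TLI groups held 4 libraries each, except DC2, for which pool 2 has no library here and 3 remained. The 15 TLI libraries span 2 batches by their labels, pools 1 and 2 in batch 1 and pools 3 and 4 in batch 2, and all 8 Untreated libraries belong to batch 1.

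NF-kB factors are dimers of Rel-family proteins. Rela, Rel (c-Rel) and Relb carry activation domains, whereas Nfkb1 and Nfkb2 encode the precursors of p50 and p52. IkB proteins hold the dimers in the cytoplasm until IkB kinase marks them for degradation; the dimers then enter the nucleus and, among many targets, switch on the genes of their own inhibitors. Nfkbia and Nfkbie encode the cytoplasmic inhibitors IkB-alpha and IkB-epsilon, Nfkbid and Nfkbiz encode the nuclear IkB-like proteins IkBNS and IkB-zeta, and Tnfaip3 encodes A20, a ubiquitin-editing enzyme that damps signalling upstream of the kinase. In DCs the pathway is best known for driving maturation, with Rel linked to cytokine genes and Relb to the development of splenic DCs of the CD172-positive branch.

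The libraries held between 19256447 and 36997890 estimated counts, and all 10 genes had at least 133 counts in every library, so that none was near the detection floor. Levels are given as counts-per-million of the library total (CPM), which allow a gene to be compared between libraries, and, where genes are compared with each other, as CPM per kb of exon. The sorted populations carried their markers in part: the summed CPM of 9 DC1 markers was 2708 to 4918 in the DC1a libraries and 2074 to 3328 in the DC3 libraries, against 207 to 488 in the DC2 libraries and, in DC1b, 1948 to 2009 in Untreated and 802 to 1597 in TLI libraries. The 10 DC2 markers summed to 1623 to 2982 CPM in the DC2 libraries, 377 to 633 in DC1a and 552 to 891 in DC3. In Untreated DC1b they summed to 2062 to 2974, above the 1813 to 1956 of Untreated DC2, and in TLI DC1b to 737 to 1173. In DC1b the 2 treatments differed in other cell types: 7 plasmacytoid DC markers summed to 3043 to 3477 CPM in Untreated DC1b and 49 to 160 in TLI DC1b, and 8 neutrophil markers summed to 1 to 20 and to 1405 to 20915, respectively. In DC2 the neutrophil markers summed to 0.467 to 1.55 CPM in Untreated and 110 to 2322 in TLI libraries. They reached at most 10.9 CPM in TLI DC1a and 85.0 CPM in TLI DC3. The 12 monocyte and macrophage markers summed to 5388 to 5706 CPM in Untreated DC2 and 6013 to 13806 in TLI DC2. The 6 erythroid markers summed to 19288 to 133558 CPM in TLI libraries of batch 1, 143 to 7144 in those of batch 2 and 56 to 2276 in Untreated libraries. The part of these other cells in the results was not tested, and in a sorted bulk library fewer expressing cells and less RNA per cell cannot be told apart.

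Promoter windows of 250 bases before a RefSeq start and a shorter stretch after it (GRCm38.p6) were found for 7 of the 10 genes: Nfkb2, Rel, Rela, Nfkbia, Nfkbie, Nfkbid and Tnfaip3. The kappaB consensus, the motif that NF-kB dimers bind, was searched on both strands and was present in a window of 6 of these 7 genes, all but Rela, and in 9.55% of the 27025 genes with a window (8.46% of 32851 windows). The 4 stretches printed here come from the genes whose levels differed between populations or batches, from 240 to 11 bases before the start, 5′ to 3′ on the strand of the gene, with kappaB matches in capitals. Rel lies on the minus strand at chr11:23770980-23771209, Nfkbia on the minus strand at chr12:55492658-55492887, Nfkbie on the plus strand at chr17:45555460-45555689, and Nfkbid on the plus strand at chr7:30422166-30422395, the stretch before the second of its 3 listed starts, the only one of the 3 with a match.
Rel: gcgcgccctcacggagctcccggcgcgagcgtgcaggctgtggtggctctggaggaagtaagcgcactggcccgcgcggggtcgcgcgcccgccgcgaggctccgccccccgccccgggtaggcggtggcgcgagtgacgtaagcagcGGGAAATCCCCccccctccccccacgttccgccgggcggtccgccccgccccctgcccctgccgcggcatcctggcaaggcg
Nfkbia: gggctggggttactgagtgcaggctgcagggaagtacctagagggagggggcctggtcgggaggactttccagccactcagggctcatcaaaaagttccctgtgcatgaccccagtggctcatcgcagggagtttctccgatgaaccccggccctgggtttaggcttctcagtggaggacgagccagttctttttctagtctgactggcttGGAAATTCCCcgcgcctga
Nfkbie: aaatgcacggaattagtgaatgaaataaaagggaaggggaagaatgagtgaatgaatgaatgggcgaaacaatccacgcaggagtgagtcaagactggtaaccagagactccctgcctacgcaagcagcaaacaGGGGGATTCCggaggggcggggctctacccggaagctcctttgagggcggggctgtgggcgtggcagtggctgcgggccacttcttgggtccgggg
Nfkbid: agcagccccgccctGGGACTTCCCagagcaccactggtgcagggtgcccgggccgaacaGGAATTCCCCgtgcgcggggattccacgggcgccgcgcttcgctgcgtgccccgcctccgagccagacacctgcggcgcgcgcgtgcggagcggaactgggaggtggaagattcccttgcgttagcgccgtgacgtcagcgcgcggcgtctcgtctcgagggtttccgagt
In Rel the capitals cover 2 overlapping matches, of which the outer one lies 92 to 83 bases before the start. The single match in Nfkbia lies 29 to 20 bases before the start and that in Nfkbie 106 to 97 bases before it, whereas Nfkbid holds 2 separate matches, at 226 to 217 and 181 to 172 bases. The AP-1 motif (TGANTCA) was found in windows of 3 of the 7 genes, Nfkb2, Nfkbie and Tnfaip3, and in 8.97% of all genes, and the cyclic AMP response element (TGACGTCA) in 1 of the 7, Nfkbid, and in 2.03% of all genes. These matches describe the letters in the windows and do not show that a factor was bound.

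By CPM per kb of merged exons Rel, which encodes c-Rel, was the main subunit transcript of these cells. Rel was also the member called in the most comparisons of populations. Scaled by exon length, Rel made up a median of 45.1% of the 5 subunit transcripts (12.5 to 73.9% over the 23 libraries) and was the highest of the 5 in 21 of 23 libraries. The exceptions were 1 library led by Rela, DC1a TLI pool 2, and 1 led by Nfkb1, DC3 TLI pool 2. These shares depend on the length of the merged exons, 12.1 kb for Nfkb1 and 7.47 kb for Rel. In plain CPM Nfkb1 lay above Rel in DC1b TLI pool 2 (203 and 196 CPM) and DC2 TLI pool 4 (282 and 179 CPM). It did so too in DC3 TLI pool 2 (303 and 62.9 CPM) and pool 4 (121 and 82.6 CPM). Nfkb1 followed with a median share of 17.2%, Relb with 15.5%, Rela with 14.8% and Nfkb2 with 5.79%, and Nfkb2 was the lowest subunit in 16 of 23 libraries. The exons of Nfkb2 overlap those of Psd, a protein-coding gene on the other strand, and of AC114539.1, and no strand setting is given in the sources used here, so that the level of Nfkb2 is uncertain. Among the inhibitors, Nfkbia was the highest per length in 23 of 23 libraries, with a median share of 78.4% (50.7 to 90.3%), and the median shares of the other 4 inhibitors lay between 3.59 and 5.99%.

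**Figure D1:**
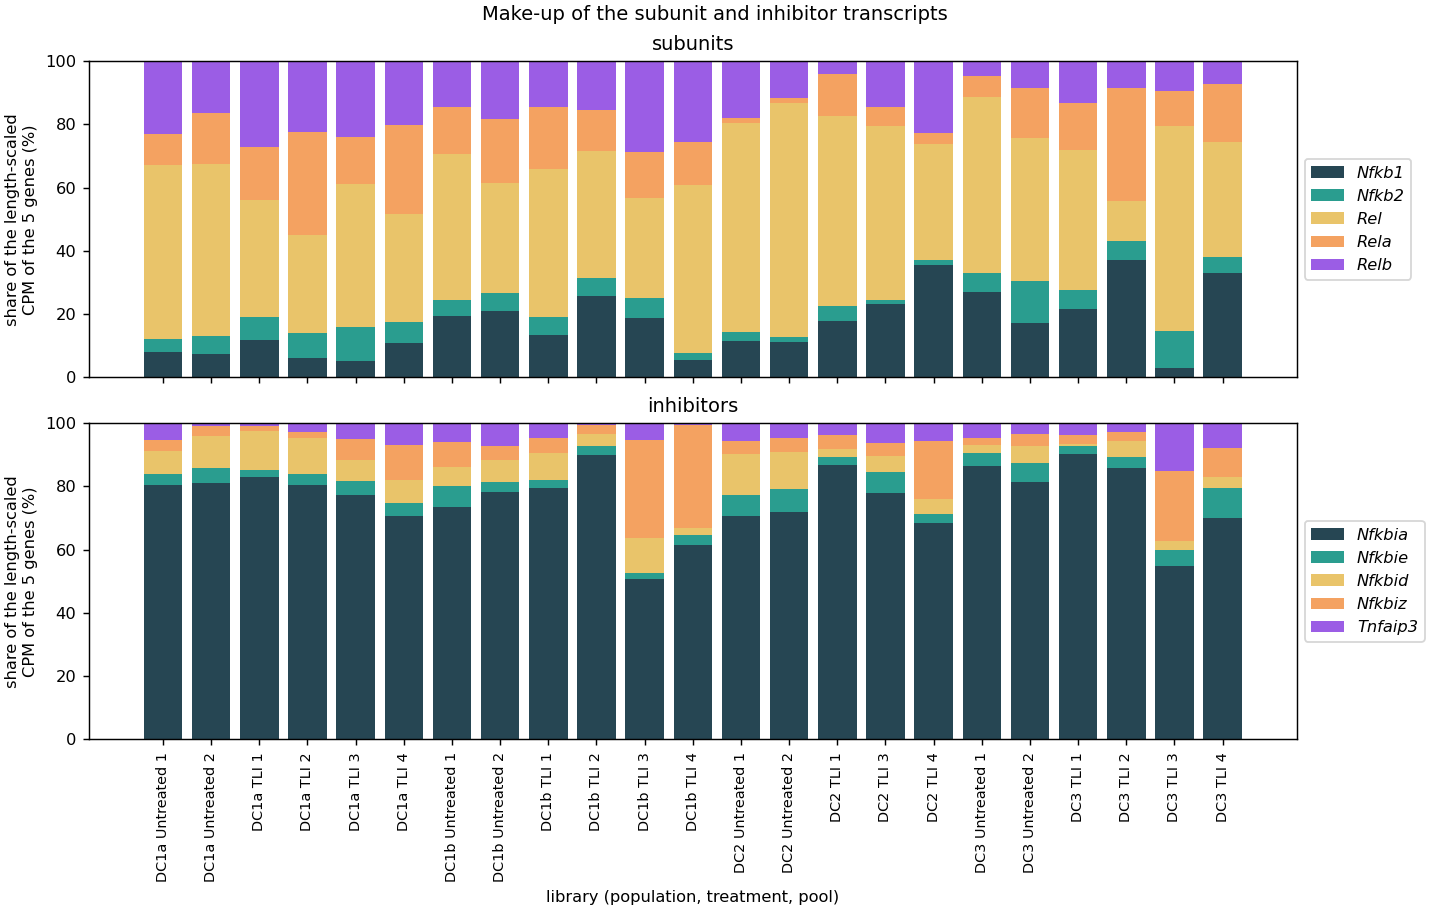
Share (%) that each of the 5 subunits (upper panel) and each of the 5 inhibitors (lower panel) takes of the summed length-scaled CPM of its class, 1 bar for each of the 23 libraries named by population, treatment and pool. Rel takes the largest subunit share in 21 libraries and Nfkbia the largest inhibitor share in all 23.

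In Untreated mice Rel was higher in DC2 than elsewhere. Its level was 1073 and 1335 CPM in the 2 DC2 pools, 352 and 341 CPM in DC1a, 356 and 212 CPM in DC1b and 274 and 243 CPM in DC3. Both DC2 libraries stood above the other 6, whose ranges ran into each other. The fitted difference of DC2 over DC1b was 2.17 on the log2 scale (SE 0.43, 4.50-fold, adjusted p = 0.0316, edgeR's quasi-likelihood test), and that of DC3 to DC2 was -2.28 (SE 0.43, adjusted p = 0.0151). The difference of DC2 over DC1a was 1.59 (SE 0.42) and missed the threshold of 0.05 with an adjusted p of 0.0665, although DESeq2, a minimum of 10 counts in each library and a fit of the Untreated libraries alone called it. DESeq2 called 1893 of the 19597 genes in that comparison, against 375 by edgeR. As given above, the DC2 markers were higher in Untreated DC1b than in Untreated DC2, and their part in the DC2 and DC1b difference was not tested.

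The other subunits did not share 1 pattern in Untreated DC2. Relb, the subunit of the non-canonical arm, was 153 and 110 CPM in DC2, 76.5 and 53.2 CPM in DC1a, 57.7 and 58.4 CPM in DC1b, and 11.8 and 23.6 CPM in DC3. The DC3 libraries were thus below the other 6 and the DC2 libraries above them, and Relb fell by 2.94 on the log2 scale from DC2 to DC3 (SE 0.64, adjusted p = 0.0395). With the pool as a replicate block the adjusted p of this Relb difference was 0.0785. Rela, the classical partner of p50, had 10.1 and 12.3 CPM in DC2, the lowest group mean of the 8, against 26.1 and 42.0 CPM in DC1a, 47.6 and 50.4 CPM in DC1b and 13.5 and 35.3 CPM in DC3. Its fitted difference was -1.82 against DC1a (SE 0.82, adjusted p = 0.354) and -2.05 against DC1b (SE 0.83, adjusted p = 0.474). Rel took 66.1 and 73.9% of the subunit transcripts per length in Untreated DC2 and Rela 1.52 and 1.65%. Nfkb1 was 303 and 325 CPM in DC2 and 74.0 to 242 CPM in the other Untreated libraries, and Nfkb2 overlapped between all 4 populations; neither passed the test.

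Among the Untreated libraries 4 of the 5 inhibitors, all but Nfkbiz, were higher in both DC2 libraries than in any other. Nfkbie was 213 and 259 CPM in Untreated DC2, 32.6 and 44.8 CPM in DC1a, 113 and 42.5 CPM in DC1b and 59.6 and 90.8 CPM in DC3. The DC2 libraries did not overlap with any other, and Nfkbie was higher in DC2 than in DC1a by 2.40 on the log2 scale (SE 0.51, 5.26-fold, adjusted p = 0.0180). Nfkbid was 310 and 318 CPM in DC2 and 25.1 to 77.4 CPM in the other 6 libraries. Nfkbia was 1167 and 1336 CPM in DC2 and 387 to 674 CPM in the others, and Tnfaip3 was 426 and 389 CPM in DC2 and 19.5 to 240 CPM in the others. Untreated DC2 thus lay above the 6 other Untreated libraries for these 4 inhibitors, but only Nfkbie passed the test over all genes. The share of all genes with this order of libraries was not counted, so that it cannot be told how unusual the order is. Against DC1a the fitted differences that missed it were 2.15 for Nfkbid (SE 0.77, adjusted p = 0.214), 1.46 for Nfkbia (SE 0.46, adjusted p = 0.133) and 2.36 for Tnfaip3 (SE 0.94, adjusted p = 0.279). DESeq2 called Nfkbia and Nfkbid there, and Nfkbia was also called with a minimum of 10 counts and in the Untreated libraries alone. Nfkbiz was 210 and 255 CPM in DC2 and 220 CPM in DC1b pool 1, so that these groups overlapped.

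**Figure D2:**
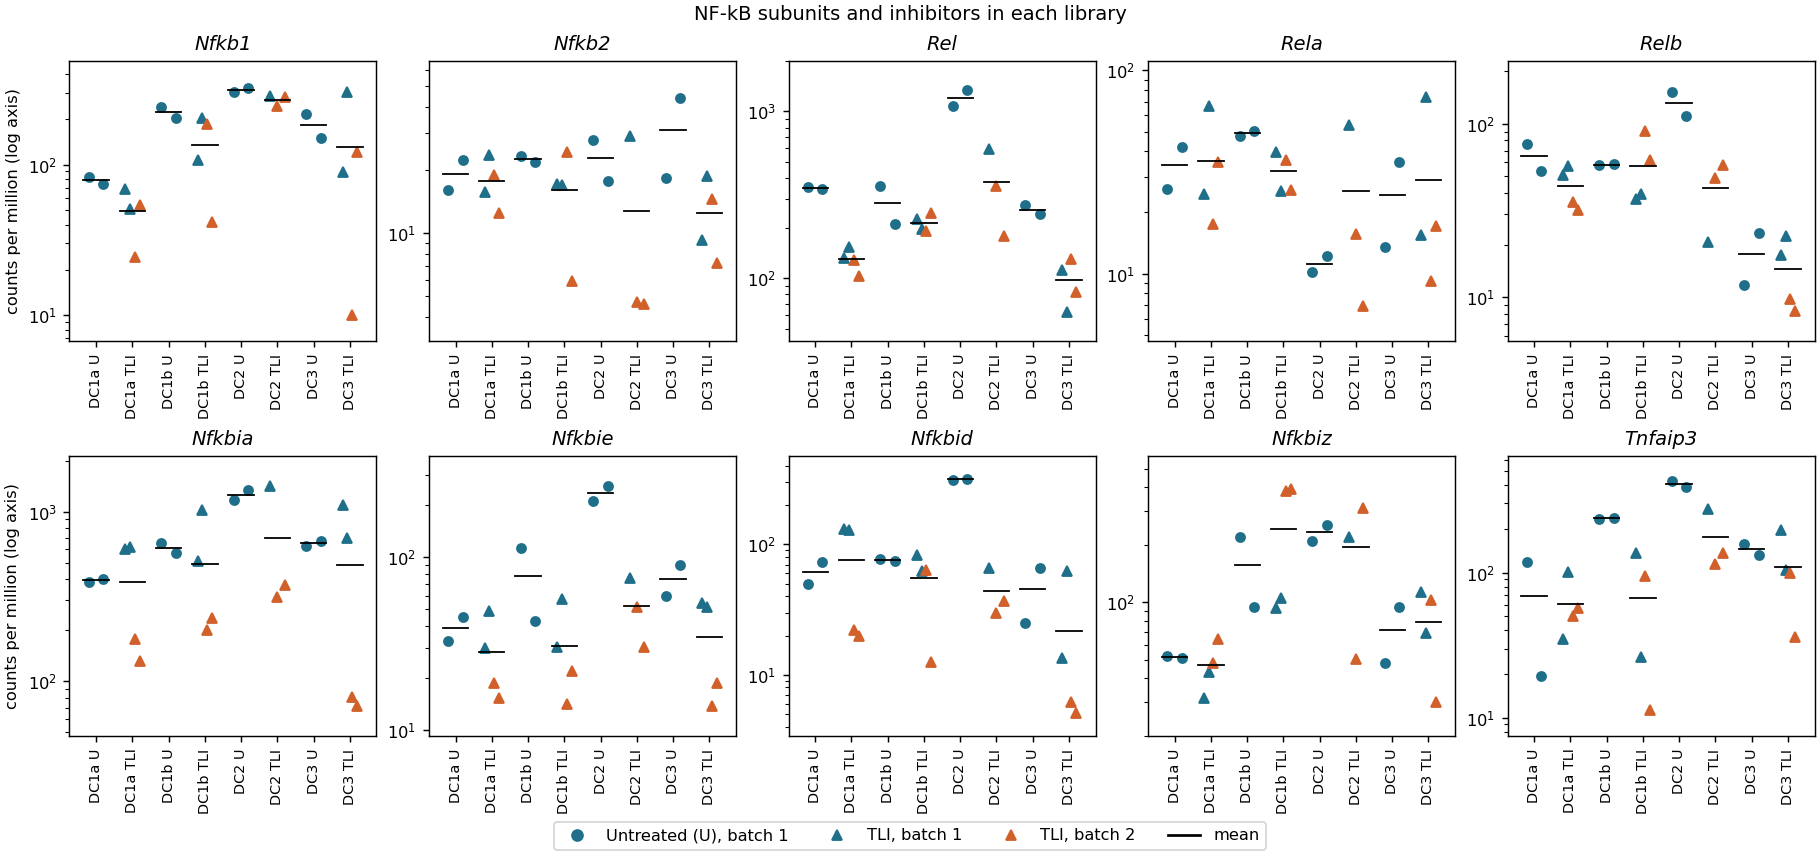
Level of each of the 10 genes in the 23 libraries, as CPM on a log axis, by population and treatment (U, Untreated); circles are Untreated, triangles TLI, colours the batch, and the bar is the mean of the group. Nfkb1, Rel, Relb, Nfkbia, Nfkbie, Nfkbid and Tnfaip3 have their highest group mean in Untreated DC2, and the batch 2 triangles of Nfkbia and Nfkbie lie below those of batch 1 in each population.

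Counted over the 10 genes, the DC2 comparisons of Untreated mice held the calls. Between DC2 and DC1a 1 of 10 genes was called, against 1.91% of all genes tested, and 9 of 10 differences were positive, with a median of 1.69 on the log2 scale against 0.11 over all genes. Of all genes 52.3% had a positive difference there. Most members were positively correlated with each other, so that their signs are not separate results. Between DC2 and DC1b 1 of 10 was called (background 0.398%), with a median of 0.99 against 0 over all genes. Between DC3 and DC2 2 of 10 were called, both lower in DC3 (background 0.837%), with a median of -1.62 against 0. No member was called by edgeR between DC1b and DC1a (background 0.837%; 0 members at an unadjusted p under 0.05), between DC3 and DC1a (0.184%; 1 at an unadjusted p under 0.05, Relb) or between DC3 and DC1b (0.393%; 1, again Relb). Of all genes 10.7, 7.47 and 8.43% had an unadjusted p under 0.05 in these 3 comparisons. DESeq2 called 0 members in the first and the last of these 3 and 1, Relb, between DC3 and DC1a. Beside these results, the summed level of 27 immediate early and tissue dissociation genes was 15214 to 17971 CPM in Untreated DC2 and 6056 to 9847 CPM in the other Untreated libraries. Monocyte and macrophage markers summed to 5388 to 5706 CPM in Untreated DC2, 780 to 812 in DC1a, 3688 to 5840 in DC1b and 1910 to 2964 in DC3. B cell markers summed to 252 to 299 CPM in Untreated DC2, 235 to 285 in DC1a, 1202 to 1483 in DC1b and 485 to 2042 in DC3. The part of these genes and cells in the differences was not tested.

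**Figure D3:**
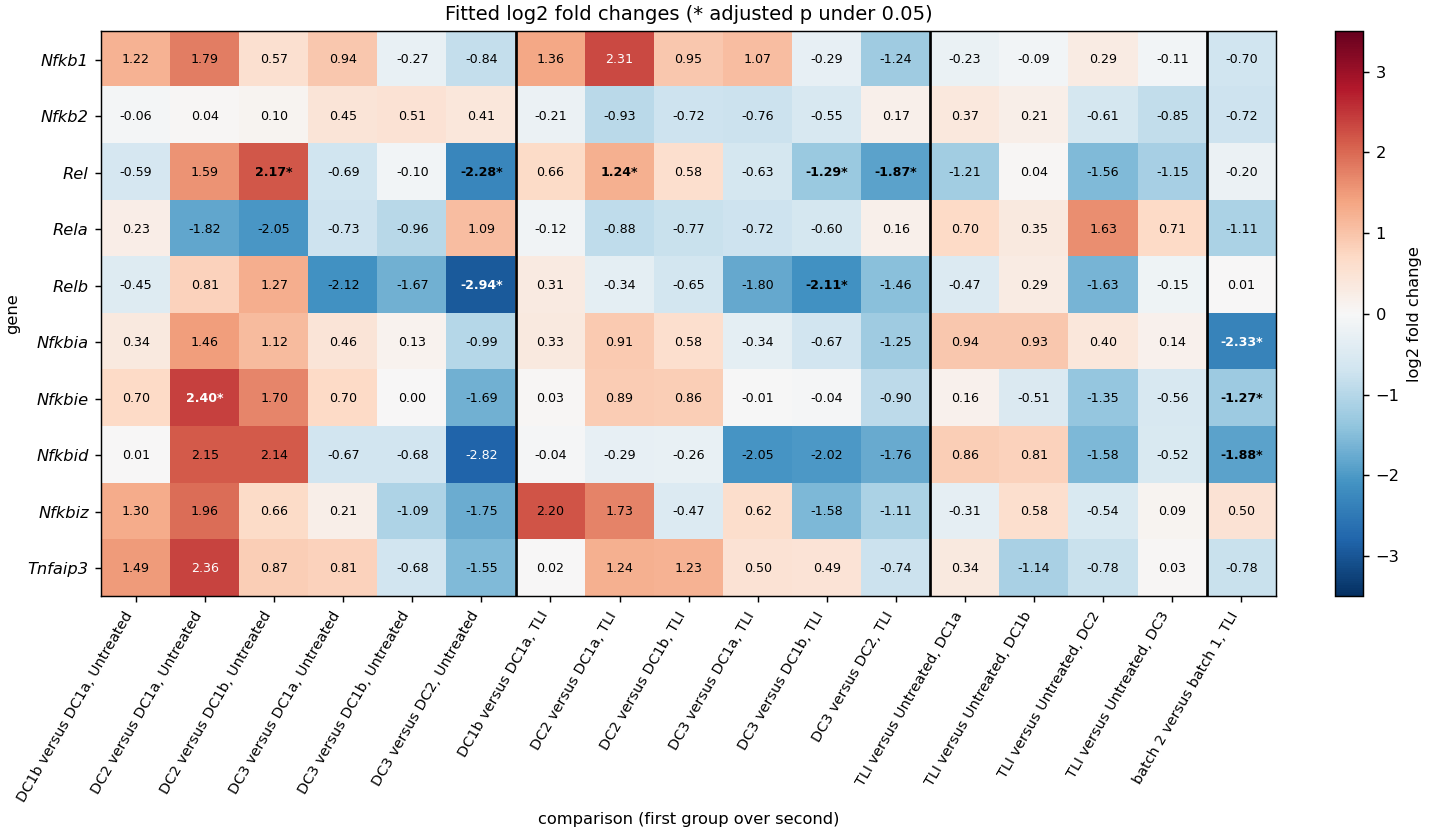
Fitted log2 fold change of the 10 genes (rows) in 17 comparisons (columns, first group over second), with colour and number giving the value and an asterisk an adjusted p under 0.05. The column of DC2 over DC1a in Untreated mice is positive for all genes but Rela, and the 3 asterisks of the last column are Nfkbia, Nfkbie and Nfkbid.

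These Untreated calls rest on 2 libraries a group. The call of Nfkbie between DC2 and DC1a was lost without any 1 of the 4 libraries compared (adjusted p 0.0741 to 0.312), with no filter on low counts (0.104) and in a fit of the Untreated libraries alone (0.0700). The call of Rel between DC2 and DC1b was lost without any 1 of the 4 libraries compared (0.0850 to 0.364) and, by little, without either Untreated library of DC1a or DC3 or without DC1a TLI pool 1 (0.0505 to 0.0550). That of Rel between DC3 and DC2 was lost without DC3 pool 2 (0.203), DC3 pool 1 (0.140) or DC2 pool 2 (0.0952). That of Relb was lost without any 1 of the 4 libraries compared (0.0903 to 0.349), without an Untreated library of DC1a or DC1b or without DC1a TLI pool 1 or 3 (0.0526 to 0.0636), with no filter (0.0620) and in the Untreated libraries alone (0.0532). The direction was kept in each of these refits.

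After TLI, Rel was again the member that separated DC2 and DC3. Its level was 593, 357 and 179 CPM in DC2 (pools 1, 3 and 4), 133, 154, 128 and 103 CPM in DC1a, 228, 196, 193 and 245 CPM in DC1b and 112, 62.9, 131 and 82.6 CPM in DC3 (pools 1 to 4). DC2 spread over a wide range that took in all of DC1b, and DC3 overlapped with DC1a. Rel fell by 1.87 on the log2 scale from DC2 to DC3 (SE 0.32, adjusted p = 0.00375), and the groups did not overlap. The adjusted p of this difference was at most 0.0481 in the 23 refits that each left out 1 library and 0.0107 with the pool as a block. In batch 1 alone, which held 1 library of DC2, the log2 difference was -2.65. In batch 2 alone the difference was -1.31 with an adjusted p of 0.343. Rel was also higher in DC2 than in DC1a by 1.24 (SE 0.31, adjusted p = 0.0361) and lower in DC3 than in DC1b (log2 difference -1.29, SE 0.30, adjusted p = 0.0438).

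Relb was the other subunit called after TLI. It was 17.5, 22.6, 9.84 and 8.37 CPM in DC3, 36.8, 39.4, 91.1 and 61.5 CPM in DC1b, 50.8, 57.4, 35.6 and 31.7 CPM in DC1a and 20.7, 48.9 and 58.0 CPM in DC2. All 4 DC3 libraries lay below all DC1a and DC1b libraries, as in Untreated mice. Relb fell by 2.11 on the log2 scale from DC1b to DC3 (SE 0.45, adjusted p = 0.0297); the difference from DC1a was -1.80 (SE 0.44, adjusted p = 0.0763). With the pool as a replicate block the adjusted p was 0.0691 for Relb between DC3 and DC1b, and it was 0.100 for Rel between DC2 and DC1a.

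Of the other subunits, Nfkb1 was 284, 245 and 282 CPM in TLI DC2 and 69.2, 50.3, 24.3 and 53.6 CPM in TLI DC1a, with no overlap and a fitted difference of 2.31 (SE 0.65, adjusted p = 0.0647). In TLI DC3 it ran from 10.1 to 303 CPM. Rela and Nfkb2 overlapped in each pair of populations after TLI, and none of their differences passed the test.

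No inhibitor passed the edgeR test between populations after TLI, but some did under the alternatives. Between DC3 and DC2 the fitted difference of Nfkbia was -1.25 (SE 0.35, adjusted p = 0.115), with overlap between the groups. DESeq2 called it, and so did a fit of batch 2 alone, in which it was 80.9 and 71.5 CPM in DC3 and 316 and 372 CPM in DC2. Nfkbiz, the inducible nuclear IkB, was 93.0, 105, 385 and 391 CPM in TLI DC1b and 31.4, 43.2, 48.0 and 64.5 CPM in TLI DC1a. The groups did not overlap, and the fitted difference was 2.20 (SE 0.58, adjusted p = 0.0789); DESeq2 and both other filters on low counts called it. The 2 high DC1b libraries are those of batch 2. In the same comparison the 12 monocyte and macrophage markers summed to 7837 to 26088 CPM in TLI DC1b and 450 to 1723 CPM in TLI DC1a, and their part in the difference was not tested. Nfkbid was at lower group means in TLI DC3 (13.5, 62.1, 6.22 and 5.10 CPM) than in TLI DC1a (130, 129, 22.2 and 20.0 CPM) but missed the test (log2 difference -2.05, SE 0.55, adjusted p = 0.116), with overlap through DC3 pool 2. DESeq2 called Nfkbid between TLI DC3 and each of the other 3 populations.

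The calls after TLI were 1 of 10 genes between DC2 and DC1a (background 3.4%), 2 of 10 between DC3 and DC1b (1.11%) and 1 of 10 between DC3 and DC2 (1.37%). In DC3 against DC1b 9 of 10 differences were negative, with a median of -0.63 against -0.08 over all genes, and in DC3 against DC2 8 of 10 were, with a median of -1.18 against -0.03. Over all genes, 46.3% of the differences were positive against DC1b and 48.5% against DC2. No member was called by edgeR between DC1b and DC1a (1.42%; 3 at an unadjusted p under 0.05), DC2 and DC1b (0.214%; 1) or DC3 and DC1a (0.75%; 3), where DESeq2 called 1, 0 and 2. Of all genes 13.6, 10.4 and 10.6% had an unadjusted p under 0.05 in these 3 comparisons. The call of Rel between DC2 and DC1a was lost without any 1 of the 4 TLI DC1a libraries, without DC2 pool 1 (adjusted p = 0.197) or pool 3, and without any 1 of the 6 Untreated libraries of DC1a, DC2 and DC3 (the others 0.0512 to 0.106). It was also lost in the TLI libraries alone (0.0850) and in batch 2 alone (log2 difference 0.97, adjusted p = 0.363). In batch 1 alone, which held 1 library of DC2, the log2 difference was 1.87. The call of Rel between DC3 and DC1b was lost in 19 of the 23 refits without 1 library (0.0518 to 0.141), all but those without DC1b pool 2, DC3 pool 3, DC2 pool 1 or DC2 pool 4 of TLI. That of Relb between DC3 and DC1b was lost without DC3 pool 3 (0.150) or 4 (0.143), DC1b pool 3 (0.0730) or 4 (0.0580) or either Untreated DC1a library (0.0501 and 0.0510). In batch 1 alone this Relb difference was -1.06 (adjusted p = 0.705) and in batch 2 alone -3.24 (0.0522); the Rel difference was -1.37 (0.364) and -1.22 (0.355), and in the TLI libraries alone the adjusted p was 0.112 for Rel and 0.0667 for Relb.

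Between TLI and Untreated mice no member was called in any population, with 0.0102% of all genes called in DC1a, 0.413% in DC1b, 0.0612% in DC2 and 0.0255% in DC3. The fit sets a batch term beside the treatment, which is estimated from the TLI pools because no Untreated library belongs to batch 2. Rel gave the smallest adjusted p in 3 populations. Its fitted TLI difference was -1.21 in DC1a (SE 0.36, adjusted p = 0.343), -1.56 in DC2 (SE 0.39, adjusted p = 0.179) and -1.15 in DC3 (SE 0.37, adjusted p = 0.356), and in each of these 3 every TLI library lay below both Untreated ones. In DC1b, where the TLI level of 193 to 245 CPM overlapped with the Untreated 212 and 356 CPM, the difference was 0.04. DESeq2 called Rel in DC2, and no other member in any population. In DC2 the TLI libraries were also below the Untreated ones for Relb (-1.63, adjusted p = 0.450), Nfkbie (-1.35, adjusted p = 0.407), Nfkbid (-1.58, adjusted p = 0.554), Tnfaip3 (-0.78, adjusted p = 0.847) and Nfkb1. The share of all genes with such an order of libraries was not counted, so that it cannot be told how unusual it is. TLI libraries of batch 2 stand among them, and no Untreated library belongs to that batch. The neutrophil and monocyte markers given above also differed between these DC2 libraries, and their part was not tested. Nfkb1 was 245 to 284 CPM after TLI and 303 and 325 CPM in Untreated DC2, with a fitted difference, beside the batch term, of 0.29 (adjusted p = 0.988). At an unadjusted p under 0.05 the counts were 2 members in DC1a, 1 in DC1b, 4 in DC2 and 1 in DC3. The shares of all genes there were 9.76, 12.4, 9.01 and 10.4%, in the same order.

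The tests of whether the TLI difference itself differed between populations called no member in any of the 6 pairs, with 0 to 0.122% of all genes called (0.0357% for DC1b against DC1a, 0.0255% for DC2 against DC1a, 0.122% for DC2 against DC1b, 0% for DC3 against DC1a, 0.0204% for DC3 against DC1b and 0.0357% for DC3 against DC2). DESeq2 called 0 members in each of them, and between 0 and 3 members had an unadjusted p under 0.05. Over all genes 4.16 to 8.75% did. The lowest adjusted p was that of Rel for DC2 against DC1b, with a difference of the differences of -1.59 (SE 0.52, adjusted p = 0.420).

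Nfkbia, Nfkbie and Nfkbid differed between the 2 batches of TLI libraries, a comparison chosen after the values were seen. Nfkbia was 604 and 620 CPM in the batch 1 libraries of DC1a, 514 and 1019 CPM in DC1b, 1425 CPM in DC2 and 1098 and 696 CPM in DC3. In batch 2 it was 178 and 132 CPM in DC1a, 201 and 237 CPM in DC1b, 316 and 372 CPM in DC2 and 80.9 and 71.5 CPM in DC3. Each batch 2 library lay below each of batch 1, and the fitted difference was -2.33 (SE 0.25, adjusted p = 1.05e-05). Untreated libraries, all of batch 1, held 387 to 1336 CPM.

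Nfkbie and Nfkbid followed. Nfkbie was 29.8 to 75.6 CPM in the 7 batch 1 libraries and 13.8 to 51.9 CPM in the 8 of batch 2, lower within each population, with a difference of -1.27 (SE 0.26, adjusted p = 0.00250). Nfkbid was 13.5 to 130 CPM and 5.10 to 63.9 CPM, with a difference of -1.88 (SE 0.42, adjusted p = 0.00475), and overlapped only in DC1b. Nfkbiz did not share this pattern: its difference was 0.50 (SE 0.43, adjusted p = 0.456), and in DC1a and DC1b its batch 2 libraries lay above those of batch 1. Tnfaip3 (-0.78, adjusted p = 0.267), Rel (-0.20, adjusted p = 0.571) and Relb (0.01, adjusted p = 0.989) did not pass the test, and Rela had -1.11 (adjusted p = 0.0806), which DESeq2 and its size factors in edgeR called. The 3 called of 10 compare with 17.4% of all genes called between the batches, and the median of the 10 genes was -0.75 against -0.23 over all genes. Markers of other cells differ between the same libraries. Beside the erythroid markers given above, 4 NK cell markers summed to 58.5 to 2528 CPM in batch 1 and 0 to 34.7 CPM in batch 2, and 5 T cell markers to 62.2 to 294 CPM and 2.50 to 36.8 CPM. The 6 dendritic cell markers summed to a median of 51860 CPM (29111 to 101933) in batch 1 and 22553 CPM (10575 to 34051) in batch 2. The batches are also different pools of mice, so that batch, pool and these cells cannot be told apart.

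**Figure D4:**
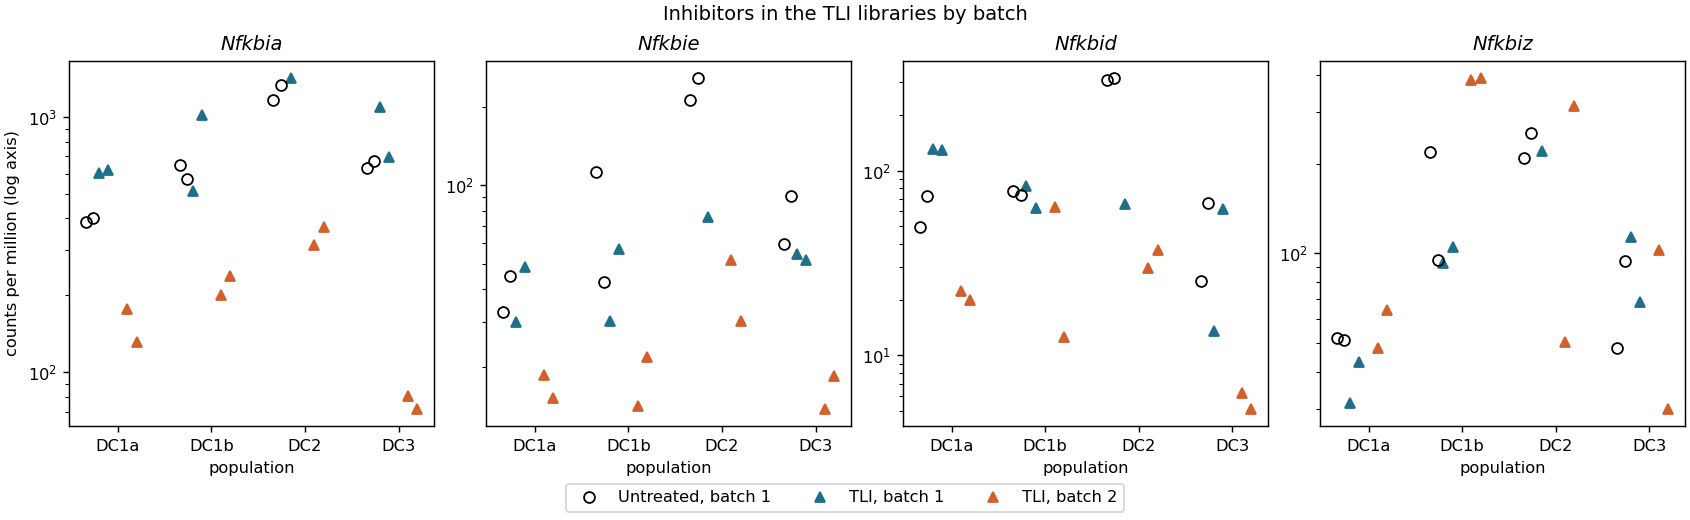
CPM (log axis) of Nfkbia, Nfkbie, Nfkbid and Nfkbiz by population in the TLI libraries of batch 1 and batch 2 (triangles), with the Untreated libraries as open circles. Every batch 2 triangle of Nfkbia is below every batch 1 triangle, whereas those of Nfkbiz are above in DC1a and DC1b.

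Over the 23 libraries the members varied together only in part. Of the 45 pairs of members 41 had a positive Pearson correlation of log2 CPM, with a median of 0.378, and the closest pair was Nfkbia with Nfkbie (r = 0.828). Relb was closest to Nfkbid (r = 0.727), Rel and Nfkb1 were closest to Nfkbie (r = 0.724 and 0.646), and Nfkbiz was closest to Rel (r = 0.447). Rela stood apart: it was the farthest member for 7 of the others, and its correlation with Rel was -0.193. The genes most like the mean pattern of the 10, among 10140 whose mean level reached 5 CPM, were Kdm6b (r = 0.887), which encodes a histone H3K27 demethylase, Pde4b (r = 0.884), a cyclic AMP phosphodiesterase, the long non-coding RNA Lncpint (r = 0.870), Nisch (r = 0.866) and Ifrd1 (r = 0.855). These correlations describe 23 libraries that share populations, pools and batches.

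Upstream of the subunits, the summed level of 34 kinases and adaptors was 2631 to 3295 CPM in Untreated DC2 and 1335 to 1992 CPM in the other Untreated libraries, with no overlap. Few of the 34 passed the test singly: Malt1, the paracaspase of the CARD-BCL10 complex, was higher in Untreated DC2 than DC1a by 3.40 (SE 0.58, adjusted p = 0.00433), the only 1 of the 34 called there (background 1.91%), where the median of the list was 0.62 against 0.11 over all genes. Tank, an adaptor that binds TRAF proteins, was lower in Untreated DC3 than in each other population, with a log2 difference of -3.32 against DC2 (SE 0.42, adjusted p = 0.000545), -2.23 against DC1a and -1.91 against DC1b. Of all genes 0.837, 0.184 and 0.393% were called in these comparisons, in the same order. After TLI Tank was again lower in DC3 than in DC2 (-1.39) and DC1b (-1.28), and Map3k14, the kinase NIK of the non-canonical arm, was lower in DC3 than in DC2 (-1.76) and DC1b (-1.66). The backgrounds were 1.37% against DC2 and 1.11% against DC1b. Ikbkb, the catalytic subunit IKK-beta, was higher after TLI in DC2 (1.25, background 3.4%) and DC1b (1.08, background 1.42%) than in DC1a. Of the 16 other NF-kB inhibitors 1 was called in any comparison of populations, Tnip3, a partner of A20, higher in TLI DC2 than DC1a by 4.00 (SE 0.82, adjusted p = 0.0100).

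The receptors that feed the pathway divided the populations in both directions. Tlr3, the sensor of double-stranded RNA and also 1 of the DC1 markers, was 3.17 CPM on average in Untreated DC2, 141 CPM in DC1a and 77.0 CPM in DC3, with a log2 difference of DC2 to DC1a of -5.69 (adjusted p = 0.00396). Clec7a, the beta-glucan receptor Dectin-1, was 325 CPM in Untreated DC2 and 13.8 CPM in DC3 (log2 difference of DC3 to DC2 -4.60, adjusted p = 0.0488), and after TLI 343 CPM in DC2, 294 CPM in DC1b, 20.2 CPM in DC1a and 23.7 CPM in DC3. Of 25 receptors 1 was called higher and 2 lower between DC2 and DC1a in Untreated mice (background 1.91%), and 4 higher and 2 lower after TLI (3.4%). Among the 10 ligands, Il1b, which encodes IL-1-beta, was 6858 CPM in Untreated DC2, 1620 CPM in DC1a, 1696 CPM in DC1b and 1451 CPM in DC3, and its differences between DC2 and each of the other 3 passed the test (1.87, 2.08 and, from DC2 to DC3, -2.28). The backgrounds of these comparisons were 1.91, 0.398 and 0.837%. Ltb, which encodes lymphotoxin-beta, was higher in DC2 than DC1a in Untreated mice (2.92, adjusted p = 0.0147) and after TLI (2.57, adjusted p = 0.0023).

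Genes that NF-kB is known to activate were called lower, and none higher, in DC3 in each comparison with another population. Of 35 target genes, 33 of which were tested, 6 were lower and 0 higher in Untreated DC3 than DC2 (background 0.837%), among them Cxcl2 (-5.43, adjusted p = 0.0070), Ccl3 (-4.59, adjusted p = 0.0380), Bcl2a1b (-3.13) and Ccl4 (-2.76). The median of the tested targets was -2.12 on the log2 scale in this comparison, against 0 over all genes. After TLI, 7 were lower and 0 higher in DC3 than DC2 (background 1.37%), 11 and 0 than DC1b (1.11%), and 8 and 0 than DC1a (0.75%), with list medians of -1.36, -1.47 and -1.60 against -0.03, -0.08 and -0.01 over all genes. In Untreated mice 1 was lower in DC3 than DC1a, Bcl2a1b (background 0.184%), and 1 lower than DC1b, Ccl4 (0.393%). Tnf, at 2.99 CPM on average in TLI DC3 against 42.4 CPM in DC2, 30.4 CPM in DC1b and 44.6 CPM in DC1a, was called in all 3 of these comparisons. Vcam1 (-6.96 against DC1b), Il12b (-7.12 against DC1b) and Ccr7 (-5.11 against DC1a), the chemokine receptor of migrating DCs and also 1 of the mature DC markers, were among the others. Beside these counts, 9 mature DC markers summed to 36.3 to 125 CPM in TLI DC3, 33.9 to 120 in TLI DC2, 251 to 553 in TLI DC1b and 238 to 1617 in TLI DC1a. In Untreated mice they summed to 208 to 285 CPM in DC3, 281 to 456 in DC1b, 567 to 624.9 in DC2 and 700 to 847 in DC1a. The NK cell markers summed to 99.8 to 255 CPM in Untreated DC3 and at most 7.30 CPM in the other Untreated libraries, and to 14.9 to 2528 CPM in TLI DC3 and at most 157 CPM in the other TLI libraries. The part of these cells in the DC3 differences was not tested. Between DC2 and DC1a 3 targets were higher and 0 lower in Untreated mice (background 1.91%), Plaur, Ccl3 and Il1b, although the median of the tested targets there was -0.06. After TLI 3 were higher and 2 lower (background 3.4%). Il1b and Tnf stand in both the ligand and the target list. Between batch 2 and batch 1 of the TLI libraries 17 of the 33 targets were lower and 0 higher, against 17.4% of all genes called in either direction, with a median of -1.36 against -0.23 over all genes.

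**Figure D5:**
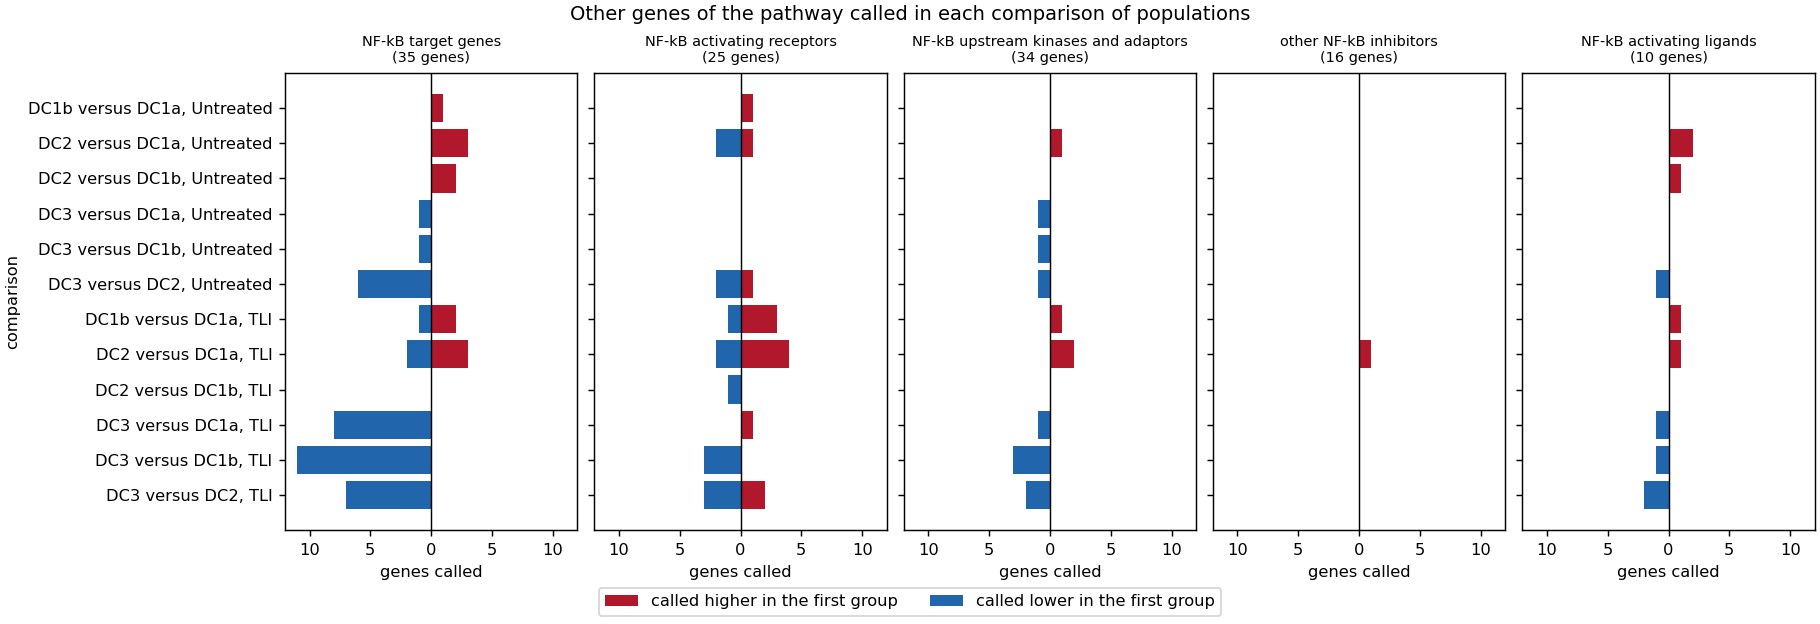
Number of genes called higher (right) or lower (left) in the first group at an adjusted p under 0.05, for 5 lists of other NF-kB pathway genes (panels) and the 12 comparisons of populations (rows). The target genes are called lower in each comparison of DC3, with 11 in TLI DC3 against DC1b, and 1 of the 16 other inhibitors is called in all.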

How the data were processed

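Dendritic cells were sorted from spleen into reaction buffer, and cDNA and libraries were made with the SMARTseq v4 UltraLow Input and KAPA HyperPlus kits. The values used are estimated counts per gene as deposited; the authors derived them from reads trimmed with Trimmomatic, aligned to GRCm38 with HISAT2 and assembled with StringTie, which gives an expected count from coverage rather than a tally of whole reads, with no strand setting stated. Of the 47729 gene identifiers 47310 had a symbol. The depth of a library was 19256447 to 36997890 estimated counts (median 27199618), so that a count of 3, the floor, was worth at most 0.156 CPM. Here CPM is the count divided by the library's total; CPM per kb divides it by the length of the merged exons.

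The main fit was edgeR 4.0.16 (R 4.3.3), quasi-likelihood, over all 23 libraries with 8 groups of population and treatment and a batch term, TMM scaling (factors 0.840 to 1.18), filterByExpr and Benjamini-Hochberg adjustment over 19597 genes at 0.05. SE is the standard error of the fitted log2 fold change. Libraries of pools are the replicates, and p-values measure the spread between these pools. The biological coefficient of variation was 1.08. A gene called passed 0.05 after adjustment. The edgeR fit was tested on simulated data, the alternatives were not. The simulated libraries had a smaller spread than these data and no batch or pool effect, so that they do not show how the fit performs here. Alternatives were DESeq2 1.42.0, its size factors, no filter, a minimum of 10 counts in each library, the libraries of 1 treatment or 1 batch, no batch term, the pool as a block and each library left out. Populations sorted from 1 pool share mice by their labels, which pairs them: residuals of libraries of 1 pool correlated by -0.00589 to 0.0159 in 12 Untreated pairs and -0.162 to 0.0686 in 21 TLI pairs. With 2 Untreated libraries a group, both pools give the same correlation by construction, so that the 12 Untreated pairs are not separate. No 2 libraries were identical.

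The 10 genes and all gene lists were chosen with earlier results of these data known. Named are the 10 genes and, of each pathway list in a comparison, up to 4 called genes with the largest fold change and at least 5 CPM in the higher group. Likeness was Pearson's r of log2 CPM (prior count 2) with the mean z-score of the 10 genes. Promoter sequences are from RefSeq (GRCm38.p6). No promoter window was used for Nfkb1, Relb or Nfkbiz, and no protein sequence was used here.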

Additional observations from a re-analysis of the deposited data

Results flagged for a closer look

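In 30 groups of 4 TLI libraries, 10 genes in each of DC1a, DC1b and DC3, 2 values stood apart from the other 3 of their group by Dixon's criterion, and chance flags about 1 group in 20. Both were in DC3 pool 2 of batch 1. Rela was 74.0 CPM in that library and 9.21 to 17.1 CPM in the other 3, and Nfkbid was 62.1 CPM there and 5.10 to 13.5 CPM in the other 3. In the same library Rel had its lowest level of all 23, 62.9 CPM, and Nfkb1 its highest level of TLI DC3, 303 CPM.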

How the results depend on the processing

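No difference of a called member changed sign in any refit, and DESeq2's size factors in edgeR left every count of called members within 1.5 times. The refits were read for the 10 members only, so that they say nothing of called genes of the other lists. DESeq2 called more members, but also more of all genes. Of 19597 genes it called 1893 between Untreated DC2 and DC1a and 1072 between Untreated DC2 and DC1b, against 375 and 78 by edgeR. Between Untreated DC1b and DC1a, where it called 0 members, it called 1260 genes against 164 by edgeR. In Untreated mice it called 4 members in place of 1 between DC2 and DC1a and 2 in place of 1 between DC2 and DC1b. It called 1 in place of 0 between DC3 and DC1a and 4 in place of 2 between DC3 and DC2. After TLI it called 1 in place of 0 between DC1b and DC1a, 3 in place of 1 between DC2 and DC1a, 2 in place of 0 between DC3 and DC1a and 4 in place of 1 between DC3 and DC2, and for TLI against Untreated in DC2 it called 1 in place of 0. The totals of DESeq2 over all genes in the other comparisons are not given here. Its counts of members there thus cannot be set against a share of all genes. Without a filter the counts were 0 and 1 for DC2 against DC1a and DC3 against DC2 in Untreated mice, and 1 and 2 for DC1b and DC2 against DC1a after TLI. With at least 10 counts in every library 3 were called between DC2 and DC1a in Untreated mice, and after TLI 1 between DC1b and DC1a, 2 between DC2 and DC1a and 2 between DC3 and DC1a. A fit of the Untreated libraries alone gave 3 between DC2 and DC1a and 1 between DC3 and DC2, and a fit of the TLI libraries alone gave 0 for DC2 against DC1a and 0 for DC3 against DC1b. Batch 2 alone likewise gave 0 and 0 for these pairs, and batch 1 alone gave 0 for DC3 against DC1b. Both were alternatives chosen after seeing the data. The totals over all genes are likewise not given here for the counts after TLI in the alternative fits. The causes were not tested.

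With the pool as a replicate block 1 member was called between DC3 and DC2 in Untreated mice, 0 between DC2 and DC1a after TLI and 1 between DC3 and DC1b after TLI, and the block changed no other call. No paired analysis was possible because the TLI and Untreated pools are different mice, for TLI against Untreated within a population. With each of the 23 libraries left out in turn the counts ran from 0 to 2 (DC2 against DC1a), 0 to 1 (DC2 against DC1b) and 0 to 3 (DC3 against DC2) in Untreated mice. After TLI they ran from 0 to 1 (DC1b and DC3 against DC1a), 0 to 2 (DC2 against DC1a, DC3 against DC1b) and 1 to 2 (DC3 against DC2), and elsewhere they stayed at 0. The 3 calls between the TLI batches held in all 23. Over all genes, DESeq2 called 1893 genes between Untreated DC2 and DC1a against 375 by edgeR. The totals there were 664 of 7049 genes with at least 10 counts and 445 of 16676 in the Untreated libraries alone. A difference that missed the threshold is not shown to be absent: between Untreated DC2 and DC1a, Rel and Nfkbia were called by DESeq2, with at least 10 counts and in the Untreated libraries alone, which also called Nfkb1.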
